A study of Mus musculus with 6 samples.

Results

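The 8 genes described here control how long-chain fatty acids enter muscle mitochondria: Acacb, Mlycd, Cpt1a, Cpt1b, Slc25a20, Cpt2, Slc22a5 and Crat. They were taken by gene symbol from the 47967 genes of the deposited count table, all 8 were present, and all 8 passed the filter on low counts. RNA was sequenced from the gastrocnemius, a calf muscle with mainly fast fibres, taken from male C57BL/6 mice aged 20 to 24 weeks. One group (NP) had eaten a normal phosphate diet, with 0.6% inorganic and 0.9% total phosphate, for 12 weeks. The other (HP) had eaten a high phosphate diet, with 2.0% inorganic and 2.3% total phosphate, for the same 12 weeks, and the diets were alike in sodium (0.9%), potassium (1.8%), calcium (1.9%) and magnesium (0.3%). Each diet has 3 libraries, and because nothing in the labels says that they came from separate mice, p-values here cover the spread among these samples alone, and that spread may be technical.

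Long-chain fatty acids cross the inner mitochondrial membrane only as carnitine esters. Carnitine palmitoyltransferase 1 at the outer membrane (Cpt1a in liver and many other tissues, Cpt1b in muscle and heart) makes the ester, the carrier encoded by Slc25a20 moves it inward in exchange for free carnitine, and Cpt2 at the inner membrane turns it back into acyl-CoA for beta-oxidation. Malonyl-CoA inhibits the first of these enzymes: Acacb, the acetyl-CoA carboxylase anchored at the mitochondrion, makes it there, and Mlycd, malonyl-CoA decarboxylase, removes it. Slc22a5 brings carnitine into the cell, and Crat moves acetyl groups between coenzyme A and carnitine.

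Libraries held 21856006 to 27474251 gene counts. On the high phosphate diet the 10 most abundant genes took 21.5 to 24.0% of the counts, against 13.01 to 16.2% on the normal diet, so the scaling between libraries matters for every gene below. Scaling by TMM, which sets a typical gene near no change, gave a median log2 fold change of -0.02 over 15347 genes, and scaling by library size alone gave -0.49. Fold changes are high over normal phosphate, with ± SE, and "called" means a Benjamini-Hochberg adjusted p under 0.05 over all genes in edgeR's quasi-likelihood test unless another tool is named. Of all genes tested, 49.3% were called under TMM, 23.0% higher and 26.3% lower. Normal phosphate replicate 2 stood apart on the first principal component, at -75.4 against -36.5 and -43.8 in the other normal phosphate libraries and 51.1 to 53.0 in the high phosphate ones. The general muscle fibre markers (Acta1, Ckm, Des, Mb, Ttn, Neb and Myoz1) were abundant in all libraries, as the tissue label requires, with a summed level of 34048 to 50086 CPM (counts scaled to a common library size) under normal and 86928 to 99127 CPM under high phosphate.

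Under TMM, 5 of the 8 genes rose (Acacb, Mlycd, Slc25a20, Cpt2 and Crat), none fell, and 3 were not called (Cpt1a, Cpt1b and Slc22a5). Their median log2 fold change was 0.64 (all genes: 23.0% higher, 26.3% lower, median -0.02). With library size alone, where 5.72% of all genes were called higher and 51.4% lower, 2 of the 8 rose (Acacb and Mlycd), 1 fell (Slc22a5) and 5 were not called. In the deposited FPKM values, tested with limma on log2(FPKM + 1), 3 rose (Acacb, Mlycd and Cpt1b), 1 fell (Slc22a5) and 4 were not called, where 4.68% of all genes were called higher and 36.8% lower at a median of -0.29. Acacb and Mlycd were thus called higher in all 3 analyses, Cpt1a was called in none, and the call on each of the other 5 depended on the scaling or the measure. The diets did not overlap for 6 genes higher on high phosphate in TMM-normalized CPM, where 30.3% of all genes were higher without overlap and 32.1% lower. By library size 3 were higher and 1 lower (8.18% and 60.2% of all genes), and in FPKM 5 were higher and 1 lower (8.18% and 52.8%).

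**Figure D1:**
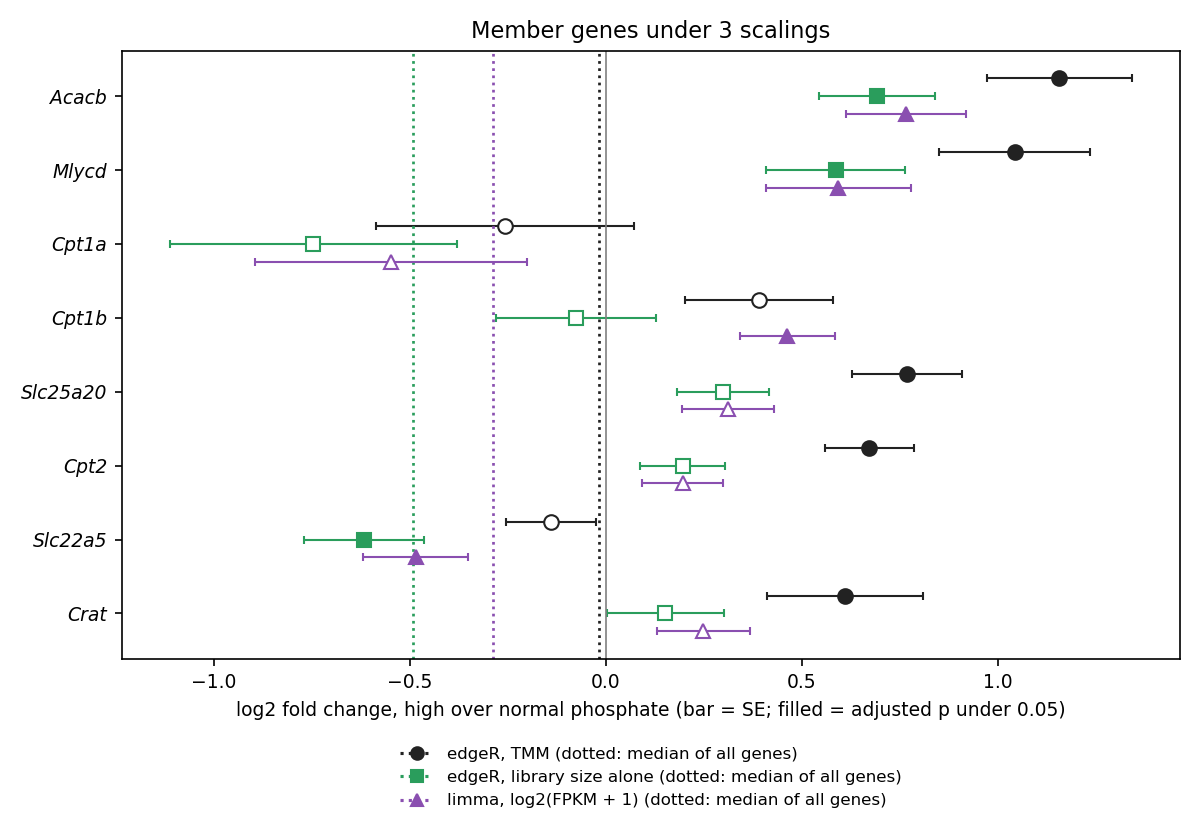
Log2 fold change of each of the 8 genes, high over normal phosphate, under TMM, under library size alone and from the deposited FPKM, with SE bars, filled symbols for adjusted p under 0.05 and dotted lines at the median of all genes (-0.02, -0.49 and -0.29). Acacb and Mlycd are filled in all 3.

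Acacb and Mlycd, which make and remove malonyl-CoA at the mitochondrion, both rose, to 2.23 and 2.06 times their normal phosphate means. Acacb stood at 189, 141 and 219 CPM in normal phosphate replicates 1, 2 and 3 and at 418, 444 and 363 CPM in high phosphate replicates 1, 2 and 3. The lowest high phosphate library was above the highest normal one, with replicate 2 of the normal diet the lowest of all. The mean went from 183 ± 39.5 to 408 ± 41.7 CPM (SD, n = 3), with a fold change of 1.16 ± 0.18 in log2 (edgeR adjusted p = 0.00142). With library size alone the log2 fold change was 0.69 ± 0.15 (edgeR adjusted p = 0.00393) and in FPKM 0.76 ± 0.15 (limma adjusted p = 0.0117).

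Mlycd was at 86.5, 55.6 and 59.2 CPM on the normal diet and at 123, 167 and 126 CPM on the high phosphate diet. The diets did not overlap, normal phosphate replicate 1 was the highest of its diet, and high phosphate replicate 2 stood above the rest. The mean went from 67.1 ± 16.9 to 138 ± 24.6 CPM (SD, n = 3), with a fold change of 1.04 ± 0.19 in log2 (edgeR adjusted p = 0.00267). With library size alone it was 0.59 ± 0.18 (edgeR adjusted p = 0.0193), and high phosphate replicate 1 (97.4 CPM by library size) then lay just above normal phosphate replicate 1 (95.2). In FPKM Mlycd was at 33.5, 25.6 and 24.1 against 35.7, 52.0 and 39.7, a log2 fold change of 0.59 ± 0.18 (limma adjusted p = 0.0414). That call was lost over all genes above 0 in FPKM (limma adjusted p = 0.0831), and it was kept in only 1 of the 6 FPKM fits that left out a library, at limma adjusted p values of 0.0310 to 0.109. The FPKM call on Acacb was kept in all 6, at 0.0103 to 0.0386.

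**Figure D2:**
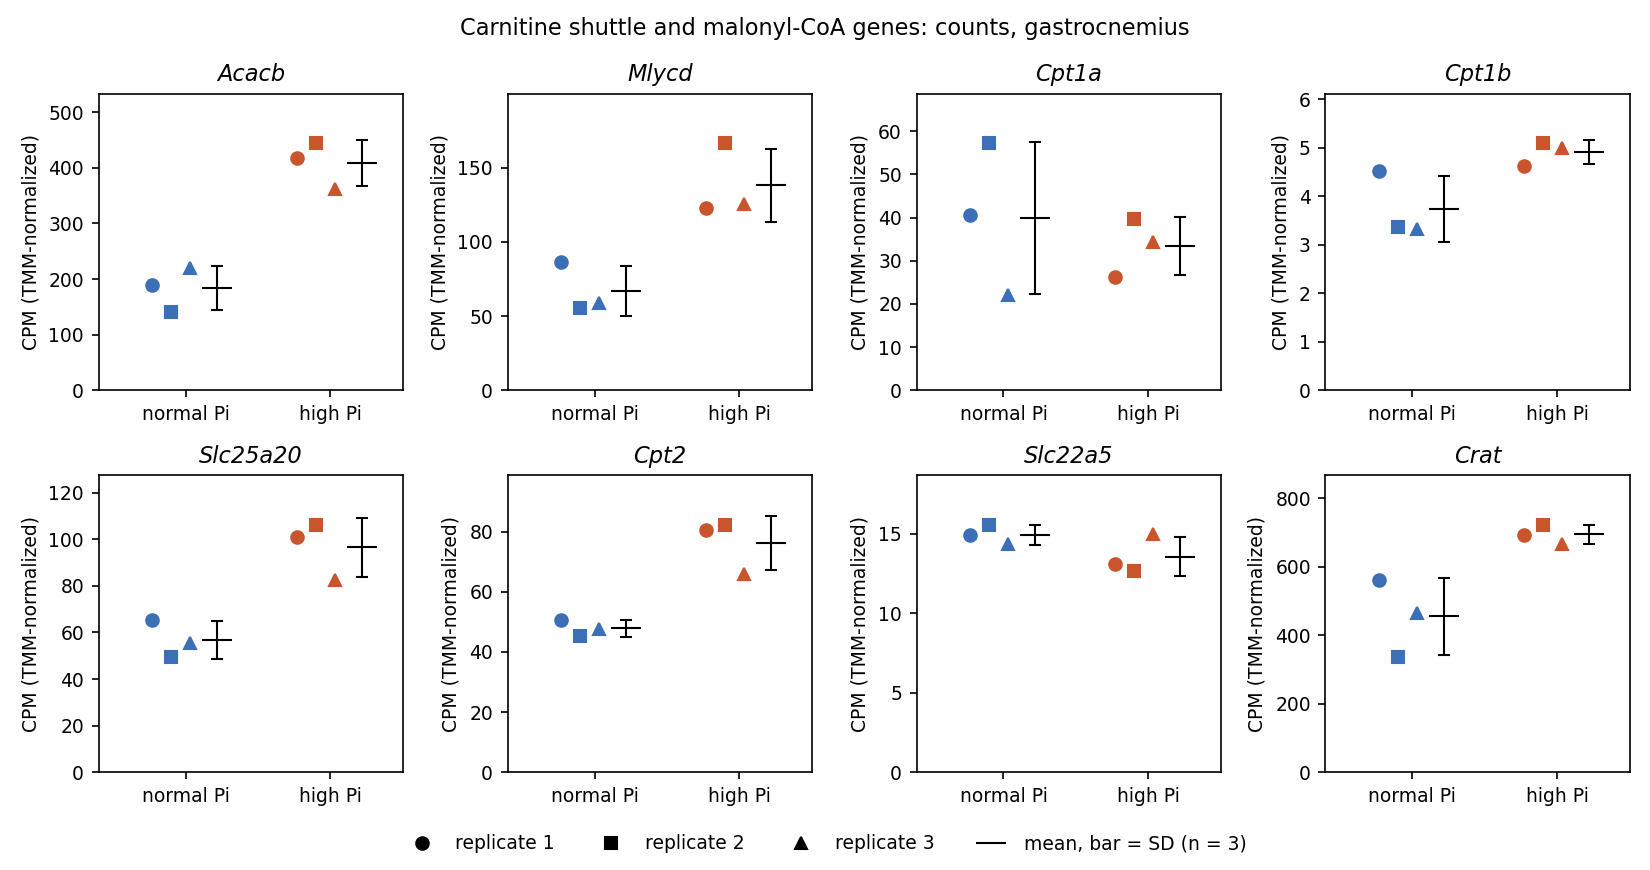
TMM-normalized CPM of the 8 genes in each library, by diet, with axes from 0 and mean and SD bars (n = 3). Acacb runs from 141 to 219 CPM under normal and from 363 to 444 CPM under high phosphate, while the diets overlap for Cpt1a and Slc22a5.

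A ratio between 2 genes of one library does not depend on the scaling between libraries. The count ratio of Mlycd to Acacb was 0.457, 0.395 and 0.270 on the normal diet and 0.294, 0.375 and 0.346 on the high phosphate diet. The high phosphate values lay inside the normal range. On the log2 scale the ratio differed by -0.12 (95% interval -0.81 to 0.57; two-sided exact permutation p = 0.7, adjusted p = 0.84 over 6 ratios), so a difference in the balance between the gene that makes malonyl-CoA and the one that removes it was not shown, within a wide interval. With 3 libraries against 3, the smallest p this test can give is 0.1.

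The ratio between both acetyl-CoA carboxylases in the bulk tissue separated the diets, although no ratio passed adjustment over the 6. White adipocyte markers were lower on high phosphate, 9 of 9 called under TMM, and the part of adipocytes in this ratio was not tested. Acaca, the cytosolic form that supplies malonyl-CoA for fatty acid synthesis, fell, with means of 108 ± 11.7 and 29.6 ± 1.41 CPM (-1.87 ± 0.11, edgeR adjusted p = 5.84e-05). The count ratio of Acacb to Acaca was 1.86, 1.4 and 1.81 on the normal diet and 13.4, 15.7 and 12.4 on the high phosphate diet. Every high phosphate library was above every normal one, and the geometric mean ratio was 8.20-fold higher, or 3.04 on the log2 scale (95% interval 2.58 to 3.49; exact permutation p = 0.1, adjusted p = 0.45 over 6 ratios). In FPKM the ratio was 18.6-fold higher (4.21 on the log2 scale, 3.37 to 5.06; exact permutation p = 0.1, adjusted p = 0.4). The value for Acaca is uncertain, since 30.4% of its 50-base stretches are found in other genes' transcripts, chiefly Gm5182. Counts and FPKM also disagreed on it. CPM divided by FPKM, the length of transcript that the counts stand for, was 13970 to 38239 bases, or 81.8 to 224% of its exonic length. That length was 2.74 times apart between libraries and longer in every high phosphate library than in every normal one. On high phosphate mean Acaca was 0.197 times its normal phosphate mean in CPM by library size and 0.0954 times in FPKM. The size of its fall, and of the rise in the ratio, thus depended on the measure, and the cause was not tested. Acaca made up 33.7 ± 3.45% of the FPKM of both carboxylases under normal and 2.75 ± 0.887% under high phosphate, and 37.4 ± 3.70% and 6.80 ± 0.748% of their counts (SD, n = 3).

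**Figure D3:**
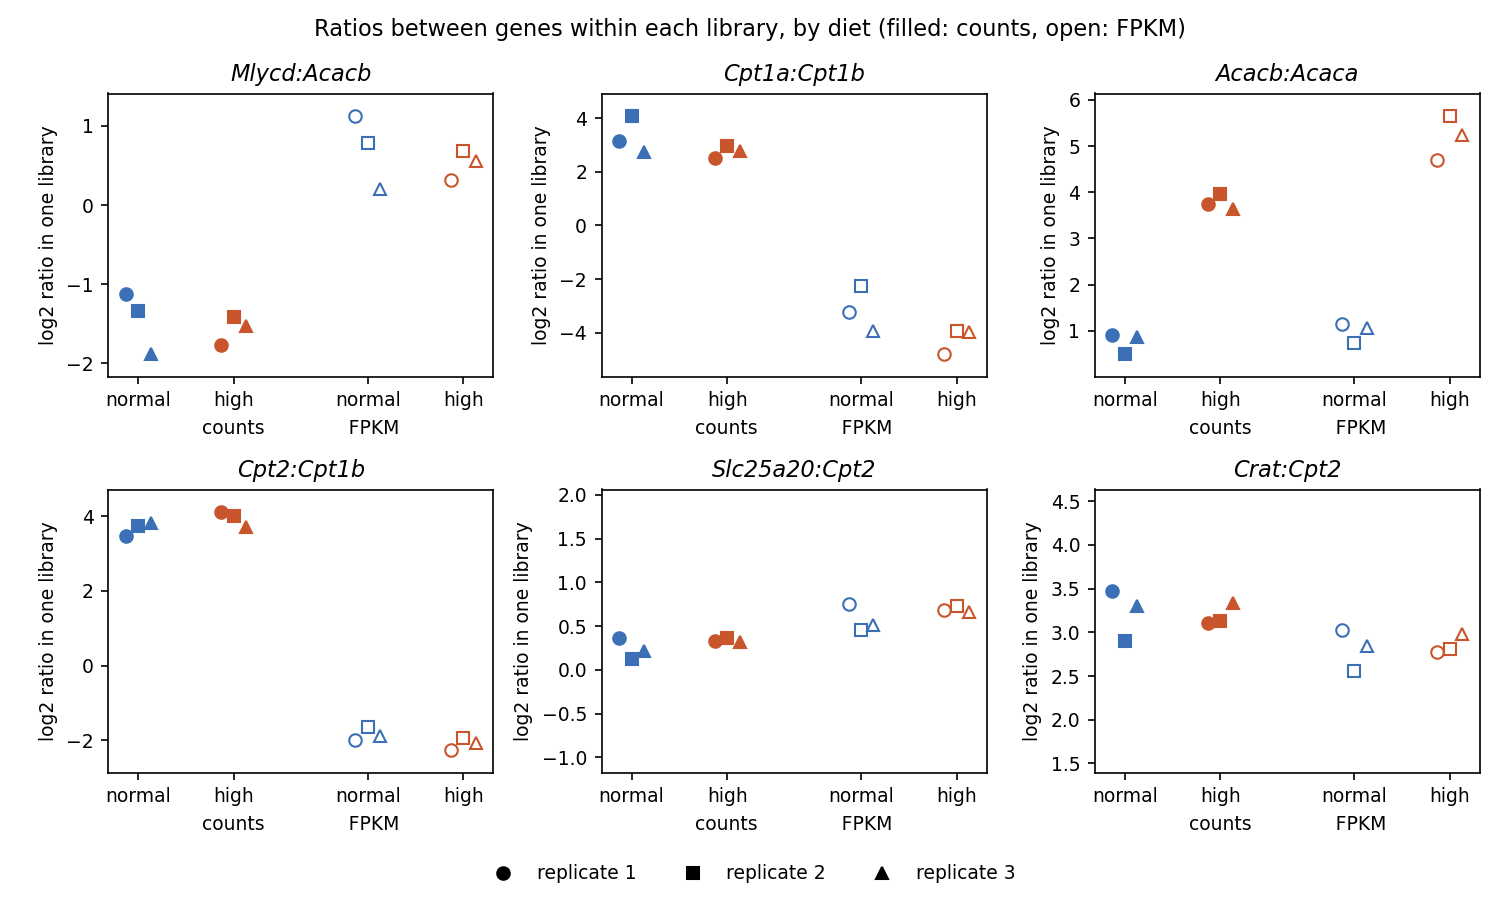
Log2 ratio between 2 genes in each library, by diet, from counts (filled) and from deposited FPKM (open), on axes that differ between panels. Acacb to Acaca is the ratio whose diets separate, from a geometric mean of 1.68 to 13.8 in counts, and the diets overlap in the other 5.

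The 2 isoforms of carnitine palmitoyltransferase 1 differed in level and in how well they could be counted. Cpt1b, the muscle isoform, was at 72.0, 62.1 and 68.4 FPKM on the normal diet and at 104.7, 92.0 and 83.9 FPKM on the high phosphate diet. The diets did not overlap in FPKM. The mean went from 67.5 ± 5.02 to 93.6 ± 10.5 FPKM (SD, n = 3), or 0.46 ± 0.12 as log2(FPKM + 1) (limma adjusted p = 0.0250). The call was lost in 4 of the 6 fits that left out a library, at limma adjusted p values of 0.0384 to 0.0687 and differences of 0.38 to 0.54.

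The count table told less about Cpt1b, with 118, 95 and 91 counts in the normal and 101, 100 and 96 counts in the high phosphate libraries. All 6 libraries lay within 91 to 118 counts, and counting error alone is 10.5% at 91 counts. In TMM-normalized CPM this was 3.74 ± 0.677 and 4.90 ± 0.244, not called (0.39 ± 0.19, edgeR adjusted p = 0.111), although leaving out normal phosphate replicate 1 brought a call (0.55, edgeR adjusted p = 0.0447), and the sign turned by library size (-0.08, edgeR adjusted p = 0.767). For Cpt1b CPM divided by FPKM was 35.1 to 69.7 bases, or 1.04 to 2.07% of its 3372 exonic bases, whereas for the other 7 genes it was 47.3 to 141% of the exonic length. The value for Cpt1b was lower in every high phosphate library than in every normal one. On high phosphate mean Cpt1b was 0.951 times its normal phosphate mean in CPM by library size and 1.39 times in FPKM. The rise in FPKM thus came with a mismatch between both measures that differed by diet, and its cause was not tested. In the GENCODE M21 annotation (GRCm38) Cpt1b lies on the minus strand of chromosome 15, from 89416405 to 89425863, and 81.4% of its exonic bases (2744) are also exons of Gm44502, a transcript on the same strand that runs from the neighbouring gene Chkb through Cpt1b. Gm44502, looked up by symbol and identifier, matched no entry in the tables used here. Chkb, which shares 50.7% of its exonic bases with Gm44502, had 596 to 921 counts and 50.4 to 57.9 FPKM. The part of the overlap in the low counts of Cpt1b was not tested, and how the authors' counting treated reads that fall in 2 genes is not given in the sources used here. The FPKM values of Cpt1b are used to describe this gene, but that they are the better measure was not tested.

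Cpt1a, the isoform best known from liver, was at 40.5, 57.3 and 22.0 CPM on the normal diet and at 26.3, 39.6 and 34.4 CPM on the high phosphate diet. The high phosphate libraries all lay within the normal range, and normal phosphate replicates 2 and 3 were the highest and the lowest of all 6. Means were 39.9 ± 17.6 and 33.5 ± 6.72 CPM (SD, n = 3), and Cpt1a was not called (-0.26 ± 0.33, edgeR adjusted p = 0.544), by library size (-0.75, edgeR adjusted p = 0.116) or in FPKM (-0.55, limma adjusted p = 0.235). Without normal phosphate replicate 2 its sign turned (0.10). That library also had the highest summed level of the fibroblast markers, 10833 CPM against 4338 to 5237 CPM in the other normal phosphate libraries. Its macrophage (584 CPM) and endothelial (778 CPM) marker levels were the highest as well, against 312 to 404 and 643 to 657 CPM there. Its general fibre and white adipocyte marker levels were the lowest of its diet, at 34048 and 2469 CPM. The part of these cells in its Cpt1a level was not tested.

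In FPKM, which are scaled for length, Cpt1b was the more abundant isoform in every library. Cpt1a made up 9.70, 17.4 and 6.12% of the FPKM of both isoforms under normal and 3.46, 6.21 and 6.00% under high phosphate. Normal phosphate replicate 3 lay below the highest high phosphate library, so the diets overlapped. The means were 11.1 ± 5.74% and 5.23 ± 1.54% (SD, n = 3; two-sided exact permutation p = 0.2). In counts the order was the reverse, with Cpt1a at 90.4 ± 3.81% and 87.0 ± 1.81% of both, which rests on the few counts of Cpt1b. Cpt1c, the isoform of neurons, was far lower at 1.83 ± 0.550 and 0.727 ± 0.153 FPKM, and fell (-0.88 ± 0.23 in counts, edgeR adjusted p = 0.0108).

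**Figure D4:**
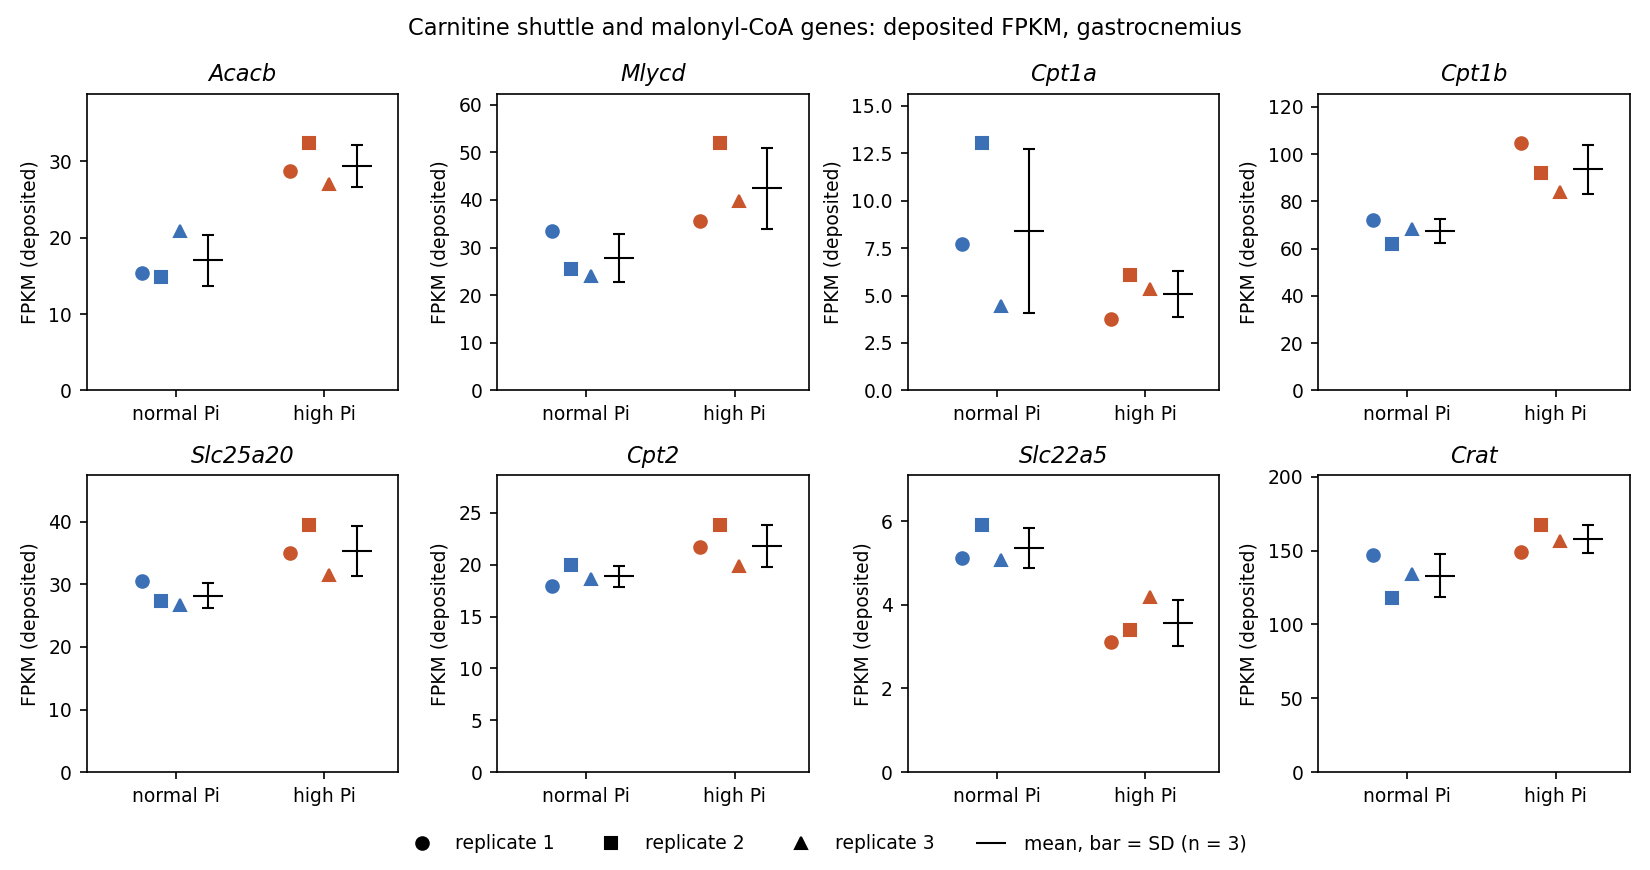
Deposited FPKM of the 8 genes in each library, by diet, with axes from 0 and mean and SD bars (n = 3). Cpt1b runs from 62.1 to 72.0 FPKM under normal and from 83.9 to 104.7 FPKM under high phosphate, and Slc22a5 is lower in every high phosphate library.

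The carrier and the inner-membrane enzyme rose together under TMM. Slc25a20 was at 65.4, 49.5 and 55.3 CPM on the normal diet and at 101, 106 and 82.4 CPM on the high phosphate diet. The diets did not overlap, and high phosphate replicate 3 was the lowest of its diet. The mean went from 56.7 ± 8.05 to 96.6 ± 12.5 CPM (0.77 ± 0.14, edgeR adjusted p = 0.00236). Cpt2 was at 50.7, 45.3 and 47.5 CPM and at 80.5, 82.3 and 65.9 CPM. Here too the diets did not overlap and high phosphate replicate 3 was the lowest of its diet. Its mean went from 47.8 ± 2.72 to 76.2 ± 9.001 CPM (0.67 ± 0.11, edgeR adjusted p = 0.00181). Neither was called with library size alone, at 0.30 for Slc25a20 (edgeR adjusted p = 0.0540) and 0.20 for Cpt2 (0.147), or in FPKM, at 0.31 (limma adjusted p = 0.0716) and 0.20 (0.168). The count ratio of Slc25a20 to Cpt2 was 1.29, 1.09 and 1.16 under normal and 1.25, 1.29 and 1.25 under high phosphate. It differed by 0.10 on the log2 scale (95% interval -0.10 to 0.30; exact permutation p = 0.3, adjusted p = 0.45 over 6 ratios), the narrowest interval of the ratios tested. The Cpt2 to Cpt1b ratio differed by 0.26 in counts (-0.17 to 0.70; exact permutation p = 0.3, adjusted p = 0.45) and by -0.26 in FPKM (-0.66 to 0.13; exact permutation p = 0.2, adjusted p = 0.4).

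Crat was the most abundant of the 8 genes per length, at 147, 118 and 134 FPKM under normal and 149, 167 and 157 FPKM under high phosphate. High phosphate replicate 1 lay only just above normal phosphate replicate 1. In TMM-normalized CPM it went from 455 ± 113 to 694 ± 27.9 (SD, n = 3), with a fold change of 0.61 ± 0.20 in log2 (edgeR adjusted p = 0.0303). That call was lost when normal phosphate replicate 3 or any 1 high phosphate library was left out (edgeR adjusted p = 0.0666 to 0.0829), by library size (0.15, edgeR adjusted p = 0.3995) and in FPKM (0.25, limma adjusted p = 0.132). The Crat to Cpt2 ratio differed by -0.03 on the log2 scale (95% interval -0.54 to 0.49; exact permutation p = 1.0, adjusted p = 1.0). Of the exonic bases of Crat, 8.72% overlap genes on the opposite strand (Gm16323 and Dolpp1), whose reads cannot be told apart without a strand setting.

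Slc22a5, the carnitine importer of the plasma membrane, was at 5.11, 5.91 and 5.07 FPKM under normal and at 3.10, 3.4 and 4.18 FPKM under high phosphate. Every high phosphate library was below every normal one. It was called lower in FPKM (-0.48 ± 0.13, limma adjusted p = 0.0295) and by library size (-0.62 ± 0.15, edgeR adjusted p = 0.00806). Under TMM the means were 14.9 ± 0.620 and 13.5 ± 1.23 CPM (SD, n = 3), the diets overlapped, and it was not called (-0.14 ± 0.12, edgeR adjusted p = 0.335). The call in FPKM was lost over all genes above 0 (limma adjusted p = 0.0526) and in 5 of the 6 fits that left out a library (0.0376 to 0.0902). Beside the medians of all genes, the log2 values of Slc22a5 were -0.14 against -0.02 under TMM, -0.62 against -0.49 by library size and -0.48 against -0.29 in FPKM. About 26.3% of its 50-base stretches are found in other genes' transcripts, chiefly its neighbour in sequence Slc22a21, so its counts are uncertain to that extent.

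In order of FPKM on the normal diet the genes ran Crat (133 ± 14.7), Cpt1b (67.5 ± 5.02), Slc25a20 (28.2 ± 2.01), Mlycd (27.7 ± 5.07), Cpt2 (18.9 ± 1.02), Acacb (17.0 ± 3.38), Cpt1a (8.41 ± 4.33) and Slc22a5 (5.36 ± 0.475), all SD with n = 3. The libraries of Slc25a20 and Mlycd, of Cpt2 and Acacb, and of Cpt1a and Slc22a5 overlapped, so neighbours within these pairs did not differ beyond their spread. On the high phosphate diet Mlycd (42.5 ± 8.49) lay above Slc25a20 (35.3 ± 4.04), and Acacb (29.4 ± 2.75) lay above Cpt2 (21.8 ± 2.00) in every library.

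RefSeq promoter sequence (GRCm38.p6) was matched for 6 of the 8 genes, all but Cpt1b and Crat. Shown are 126 bases, from 150 to 25 bases before the start, for Acacb and Mlycd, which were called higher in all 3 analyses, for Cpt2, called under TMM, and for Cpt1a, which was not called. Capitals mark the CCAAT box (CCAAT), the GC box (GGGCGG) and the core nuclear receptor element (AGGTCA), each on either strand. They lie at chr5:114165368-114165493 (plus strand, Acacb), chr8:119394744-119394869 (plus, Mlycd), chr4:107923614-107923739 (minus, Cpt2) and chr19:3323151-3323276 (plus, Cpt1a).
Acacb: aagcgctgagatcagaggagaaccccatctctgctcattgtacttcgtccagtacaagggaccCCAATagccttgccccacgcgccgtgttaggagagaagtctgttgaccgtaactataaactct
Mlycd: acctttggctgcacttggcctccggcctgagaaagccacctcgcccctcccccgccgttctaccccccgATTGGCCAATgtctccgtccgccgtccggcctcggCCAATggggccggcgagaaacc
Cpt2: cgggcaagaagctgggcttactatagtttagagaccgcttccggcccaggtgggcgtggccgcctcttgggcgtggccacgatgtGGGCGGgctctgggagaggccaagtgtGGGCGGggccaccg
Cpt1a: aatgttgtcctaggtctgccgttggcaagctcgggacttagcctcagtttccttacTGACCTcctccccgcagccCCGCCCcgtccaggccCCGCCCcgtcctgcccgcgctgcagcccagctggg

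Within this window Mlycd held 3 CCAAT boxes and Acacb 1, while Cpt2 held 2 GC boxes and Cpt1a 2 GC boxes and the receptor element. Over the 250 bases before the start, CCAAT occurred in 3 of the 6 promoters (Acacb, Mlycd and Cpt1a; 33.8% of 32851 promoters), GGGCGG in 4 (Cpt1a, Cpt2, Slc22a5 and Slc25a20; 32.7%) and AGGTCA in Cpt1a alone (14%). Searched on both strands with no match in the 6 were the direct repeat bound by PPAR with RXR (0.0335% of all promoters), TNAAGGTCA, the site of estrogen-related receptors (1.14%), GTAAACA, the FoxO site (3.17%), the E-box CACGTG (6.02%), the MEF2 site (0.103%), the glucocorticoid response element (0.00913%), and the cyclic AMP element TGACGTCA (1.55%). AGGTCA is contained in both longer receptor motifs. These are matches of letters in one short window, and the RefSeq start of Acacb lies at the second exon of its longest GENCODE transcript. The window of Cpt1a, too, lies inside the gene as annotated in GENCODE, where it starts at 3322334 on chromosome 19.

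Genes that supply and use malonyl-CoA were mostly lower. Of 8 in this list, all tested, 5 fell, 1 rose and 2 were not called under TMM. The median log2 fold change was -1.64 (all genes: 23.0% higher, 26.3% lower, median -0.02). Fasn, the fatty acid synthase (-3.01), the citrate carrier Slc25a1 (-2.41) and Acaca (-1.87) fell. So did Acly, which splits citrate (-1.73), and Thrsp, which promotes lipid synthesis (-1.55 ± 0.20, edgeR adjusted p = 0.000814). All 5 were lower by library size too, where 51.4% of all genes were called lower. Mcat, which hands malonyl groups to mitochondrial fatty acid synthesis, went from 15.7 ± 0.659 to 23.6 ± 2.18 CPM (0.59 ± 0.11, edgeR adjusted p = 0.00258), not called by library size (0.11, edgeR adjusted p = 0.438). The white adipocyte markers were lower in the same libraries, 9 of 9 called, with a summed level of 2469 to 3133 CPM under normal and 593 to 1016 CPM under high phosphate. In bulk tissue fewer cells of a type and less RNA per cell cannot be told apart, and the part of adipocytes in these changes was not tested.

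AMP-activated kinase, which phosphorylates and inactivates acetyl-CoA carboxylase, split by subunit. Of 9 genes of the kinase and its upstream kinases, 4 rose, 2 fell and 3 were not called under TMM. The median was 0.23 (all genes: 23.0% higher, 26.3% lower, median -0.02). By library size and in FPKM the tally turned to 2 higher and 4 lower, at medians of -0.24 and -0.21. By library size 5.72% of all genes were called higher and 51.4% lower, at a median of -0.49. In FPKM the same values were 4.68%, 36.8% and -0.29. Leaving out high phosphate replicate 1 reduced the TMM calls from 6 to 3. The catalytic subunit of muscle, Prkaa2, went from 227 ± 56.3 to 450 ± 47.9 CPM (0.98 ± 0.20, edgeR adjusted p = 0.00398), and the scaffold subunit Prkab2 from 314 ± 83.3 to 799 ± 171 CPM (1.35 ± 0.24, edgeR adjusted p = 0.00222). Both also rose with library size alone (0.52 and 0.88) and in FPKM (0.53 and 0.85). Prkag3, a regulatory subunit of fast muscle (0.82, edgeR adjusted p = 0.0156), and the upstream kinase Stk11 (0.48, edgeR adjusted p = 0.0208) rose under TMM, at 0.35 and 0.01 with library size alone, where neither was called. The upstream kinase Camkk2 fell (-1.33, edgeR adjusted p = 0.000316), as did the other catalytic subunit, Prkaa1 (-0.28, edgeR adjusted p = 0.0398).

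Genes around carnitine supply and the other acyltransferases were mostly lower. Of 8 listed, Tmlhe was not analysed here, and Bbox1 and Slc22a16 did not pass the filter on low counts. Of the 5 tested 4 fell and 1 rose under TMM, with a median of -0.70 (all genes: 23.0% higher, 26.3% lower, median -0.02). By library size 4 were called lower and 0 higher (median -1.17), where 51.4% of all genes were called lower and 5.72% higher (median -0.49). The 5 TMM calls became 3 without high phosphate replicate 1 and 3 without high phosphate replicate 3. In FPKM 3 were called, all lower, where 36.8% of all genes were called lower. Crot, the peroxisomal carnitine octanoyltransferase, went from 55.0 ± 3.49 to 87.3 ± 15.2 CPM (0.67 ± 0.13, edgeR adjusted p = 0.00382), not called by library size (0.18). Aldh9a1, an enzyme of carnitine synthesis (-0.47, edgeR adjusted p = 0.0148), the transporters Slc22a4 (-0.70, edgeR adjusted p = 0.0190) and Slc22a21 (-1.02, edgeR adjusted p = 0.0117), and Cpt1c (-0.88) fell.

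The acyl-CoA synthetases, which activate the fatty acids that the shuttle carries, moved both ways. Of 9 tested, 3 rose, 1 fell and 5 were not called under TMM. The median was 0.36 (all genes: 23.0% higher, 26.3% lower, median -0.02). By library size 0 were called higher and 3 lower (median -0.11), and in FPKM 0 higher and 2 lower (-0.099). Of all genes, 5.72% were called higher and 51.4% lower by library size (median -0.49). In FPKM these shares were 4.68% and 36.8% (median -0.29). Acsl3 (0.84, edgeR adjusted p = 0.00151), the mitochondrial acetyl-CoA synthetase Acss1 (0.89, edgeR adjusted p = 0.00780) and Acsl6 (0.41, edgeR adjusted p = 0.0441) rose, none of them with library size alone (0.36, 0.42 and -0.06). Acsl5 fell (-1.03, edgeR adjusted p = 0.000570).

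Downstream of the shuttle, 11 of 18 beta-oxidation genes rose, none fell and 7 were not called under TMM, at a median of 0.49. Under TMM 23.0% of all genes were called higher and 26.3% lower, at a median of -0.02. The smallest p values were those of Acad11 (0.81), Etfdh, which passes electrons to ubiquinone (0.78), and Acadvl, the very-long-chain dehydrogenase (0.71 ± 0.16, edgeR adjusted p = 0.00576). With library size alone 2 of the 18 rose and 1 fell, at a median of 0.02, and in FPKM 0 rose and 1 fell. Of all genes, 5.72% were called higher and 51.4% lower by library size (median -0.49). In FPKM these shares were 4.68% and 36.8% (median -0.29). Under TMM 6 were called without high phosphate replicate 1 and 7 without high phosphate replicate 2. Among receptors that regulate these genes and their known targets, 7 of 13 rose, 1 fell and 5 were not called under TMM, at a median of 0.76. By library size 3 were called higher and 2 lower (median 0.29), and in FPKM 1 higher and 1 lower (0.28). Ucp3, a mitochondrial carrier induced by fatty acids, went from 65.1 ± 27.6 to 405 ± 162 CPM (2.64 ± 0.39, edgeR adjusted p = 0.00166), and rose with library size alone (2.18) and in FPKM (2.17). Ppara, a fatty acid receptor, went from 7.21 ± 2.07 to 16.4 ± 3.17 CPM (1.18 ± 0.23, edgeR adjusted p = 0.00361) and was not called in FPKM (0.56). Rxra, the partner of the PPAR receptors, rose under TMM (0.79, edgeR adjusted p = 0.00325) but was not called with library size alone (0.32). Pparg, the receptor of adipocytes, fell (-1.31, edgeR adjusted p = 0.00117).

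**Figure D5:**
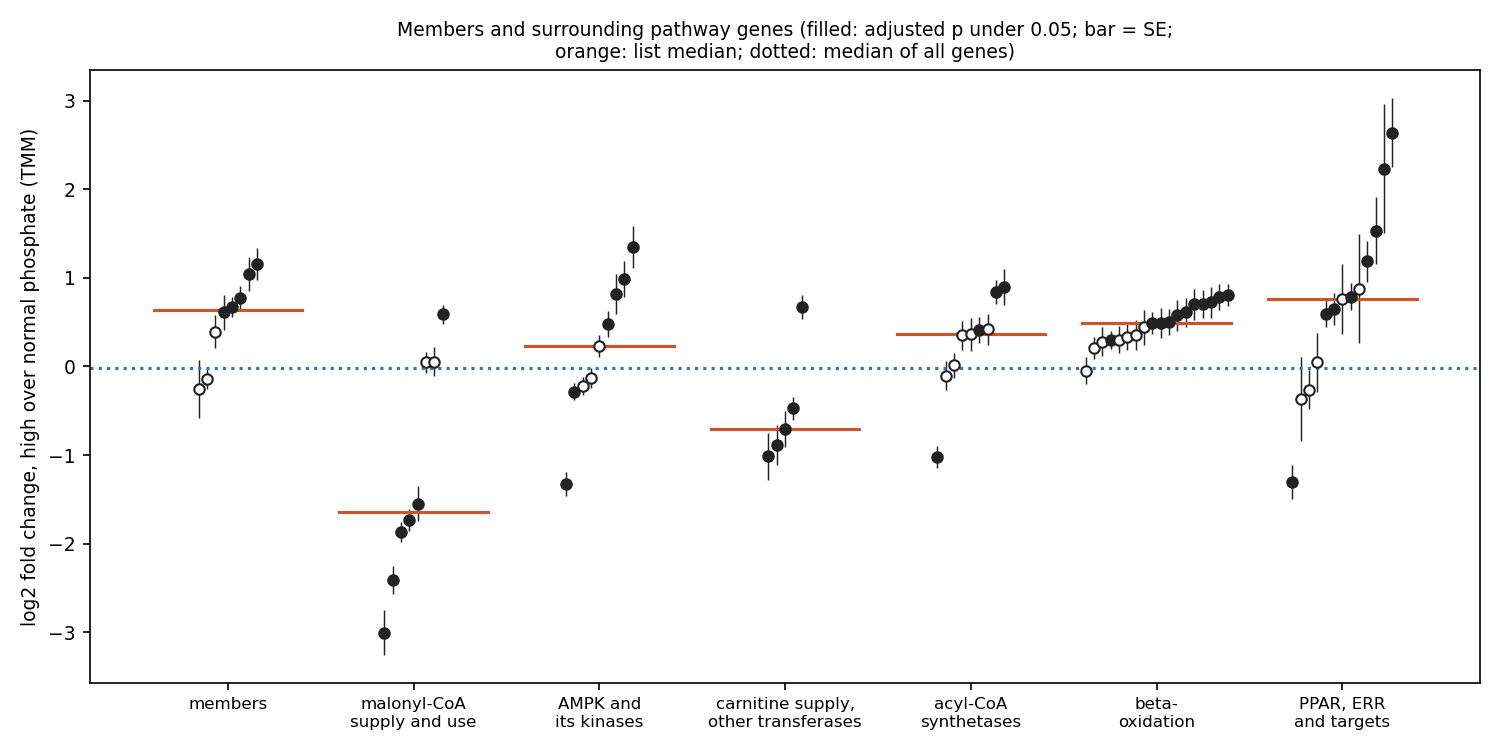
Log2 fold change under TMM of the 8 genes and of the 6 surrounding lists, each point 1 gene with its SE, filled for adjusted p under 0.05, with the list median in orange and the median of all genes dotted. The list of malonyl-CoA supply and use lies lowest, at a median of -1.64, and the receptors and targets highest, at 0.76.

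Among the 62 tested genes of these lists, the closest pattern of log2 CPM over the 6 libraries was sought for each of the 8 genes. Slc25a20 was most like Acads (Pearson r = 0.995) and Mlycd most like Eci2 (0.991), both genes of beta-oxidation. Cpt2 was most like Acad11 (0.983), Acacb like Ppara (0.982), Crat like Acadm (0.981) and Cpt1b, in its few counts, like Eci2 (0.938). Cpt1a stood nearest to Angptl4 (0.948), which was not called either, and Slc22a5 nearest to Camkk2 (0.767). The points share libraries and diets, so these r values describe the patterns and carry no test. For deviations from the diet means the same pairs gave 0.816 to 0.987. They were picked for high r in these same libraries, so this is no separate check.

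Markers of other cells moved with the diets under TMM, where 23.0% of all genes were called higher and 26.3% lower. By library size the mean log2 level differed less for fast fibre markers (0.65, against 1.12 under TMM) and general fibre markers (0.47, against 0.94). The other marker lists lay further below 0 by library size, such as the endothelial one (-1.02, against -0.55). Calls and summed levels here are those under TMM. Besides the adipocyte markers, 7 of 7 fibroblast markers were lower (summed level 4338 to 10833 CPM under normal and 2168 to 2398 CPM under high phosphate), as were 6 of 7 macrophage markers with 1 higher (312 to 584 and 159 to 225 CPM), 5 of 5 endothelial markers (643 to 778 and 381 to 532 CPM) and 5 of 5 B cell markers (9.004 to 56.2 and 0.962 to 1.83 CPM). General fibre markers were higher, 6 of 7, and so were 6 of 8 fast fibre markers (43553 to 63767 and 118905 to 158526 CPM). Of these 8, Tnnc2 had means of 2.67 and 5.68 CPM but 8549 and 12771 FPKM. Its counts and FPKM thus disagreed, as those of Cpt1b did. Of 7 genes listed for slow fibres, 5 were lower and 1, Myh2, was higher (summed level 2231 to 3168 and 1786 to 2867 CPM). Myh2 encodes the myosin of fast type IIA fibres, so that rise is not one of a slow fibre gene. Of 5 brown adipocyte markers, Ucp1 and Elovl3 did not pass the filter and none of the other 3 was called. These shifts accompany the rise of Acacb, Mlycd, Slc25a20, Cpt2 and Crat, and their part in it was not tested. Without normal phosphate replicate 2, those 5 genes remained called, at log2 fold changes of 0.998 for Acacb, 0.92 for Mlycd, 0.68 for Slc25a20, 0.63 for Cpt2 and 0.43 for Crat (edgeR adjusted p = 0.000858 to 0.0291). This is no test of the marker shifts, since they remain without that library: fibroblast markers stood at 5237 and 4338 CPM in normal phosphate replicates 1 and 3. The call on Crat was lost when normal phosphate replicate 3 or any 1 high phosphate library was left out.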

How the data were processed

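The authors deposited raw counts for each Ensembl gene. A second deposited table holds FPKM values, scaled by the authors for length and depth. The tools named, without their roles, were, per the submitters' processing notes, featureCounts 1.4.6, HISAT2 2.0.1, DESeq2 1.6.3 and Trim Galore 0.4.1, and the build was GRCm38. Not given in the sources used here are the strand setting, the annotation release and how FPKM was computed. Counts were tested with edgeR 4.0.16 (R 4.3.3): filterByExpr, TMM, robust quasi-likelihood fit, no covariate, adjustment over 15347 genes. SE is the size of a log2 fold change divided by the square root of F. FPKM values of the same genes were tested with limma 3.58.1 (trend, robust) as log2(FPKM + 1), which understates changes of low genes. Levels are compared between genes only in FPKM, apart from ratios and shares, which are also given in counts. A gene at 1 CPM had 21.9 to 27.5 counts. The 8 genes, the lists and the tests were chosen with earlier results of these data known, and the lists are described by counts and medians, without a set test. Named are the 8 genes, up to 3 called genes per list and direction (all where 5 or fewer), the paralogs Acaca and Cpt1c, genes with overlapping exons and the closest pattern per gene. In ratios 0.5 was added to each count. No library was a copy of another: within a diet, chi-square over its degrees of freedom was 16.5 to 52.4, where sampling noise gives about 1. The fit was tested on simulated data of the high against normal phosphate comparison, over 15087 genes with 200 changed. It recovered 30.3% of 1.5-fold, 59.7% of 2-fold and 97.0% of 4-fold changes, and 15 of its 139 calls were false. In the real comparison 49.3% of genes were called and the median moved with the scaling, so these rates may not hold for it. Tried as alternatives were library size, DESeq2-style size factors, TMM leaving out the 50 most abundant genes, omitting the filter, requiring 1 CPM in 3 libraries, a replicate block, omitting each library, DESeq2 1.42.0, and limma with a pseudocount of 0.1 or over all genes above 0. Leaving out libraries in the FPKM fit was added after seeing the data.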

Additional observations from a re-analysis of the deposited data

How the results depend on the processing

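Of the 8 genes, 5 were called under TMM, 3 with library size alone, 2 over all genes above 0 in FPKM, and 4 to 6 with each library left out. For the 6 surrounding lists together, 40 calls became 20 on the log2(FPKM + 1) scale, 21 with a pseudocount of 0.1, 15 over all genes above 0 and 28 to 41 with a library left out. Cpt1a turned sign without normal phosphate replicate 2 (0.097), within a range of -0.56 to 0.097 as each library was left out, and Cpt1b with library size alone (-0.075), and the cause was not tested. In FPKM the Acacb to Acaca ratio moved to 4.21 and the Cpt2 to Cpt1b ratio to -0.26, against 0.26 from counts, which rests on the 91 to 118 counts of Cpt1b. With libraries left out, the log2 differences ran from 2.91 to 3.11 for Acacb to Acaca, -0.34 to 0.04 for Mlycd to Acacb, -0.87 to -0.19 for Cpt1a to Cpt1b, 0.16 to 0.38 for Cpt2 to Cpt1b, 0.05 to 0.17 for Slc25a20 to Cpt2 and -0.19 to 0.10 for Crat to Cpt2. Over all genes, 7563 calls became 6152 to 7577 with a library left out. The labels number the libraries alike in both diets, but same-numbered libraries did not deviate together (r = -0.02, 0.02 and 0.02). With the replicate block 7328 genes and the same count of 5 of the 8 were called, with Acacb at 1.17. DESeq2-style size factors, TMM without the most abundant genes and the other filters on low counts changed no call among the 8.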
